A study of Mus musculus with 4 samples.

Results

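The genes described here make cholesterol, control its synthesis and move it between cells. They were chosen by name, as 33 genes of the synthesis steps from acetyl-CoA to cholesterol and of sterol control, uptake, export and turnover, and 30 of them had a probe set that carries that 1 gene symbol, out of 18193 genes named on the array. Acat2, Nr1h2 and Soat1 were matched to no such probe set and were not analysed here. The samples were Purkinje cells, whose axons are the sole output of the cerebellar cortex, cut by laser from frozen sagittal sections of the cerebellum of intact C57BL/6J males aged 8 weeks and measured on Affymetrix arrays after amplification of the RNA. There was 1 group of 4 samples, 2 from each of 2 animals, called 1-1, 1-2, 2-1 and 2-2 for animal and sample. Both animals carry the same strain, sex and age and no treatment, so a comparison between them describes these samples, and it is not stated whether both samples of an animal were captured separately, so p-values measure the spread between these samples, which may be technical. The granule cell layer named in the design was not analysed here.

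Cholesterol is made in brain cells because lipoproteins of the blood hardly cross the blood-brain barrier. Acetyl-CoA is turned into mevalonate, then into isoprenoids, squalene, lanosterol and, over a series of sterol steps, cholesterol. When sterol is scarce, SCAP carries the SREBP transcription factors out of the endoplasmic reticulum to be cut and activated, and the INSIG proteins hold them back when sterol is plentiful. In the adult brain astrocytes supply much cholesterol on apolipoprotein E particles, neurons take it up through receptors of the LDL receptor family, and neurons, Purkinje cells among them, dispose of the excess by a hydroxylase encoded by Cyp46a1.

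Levels below are log2 signals after quantile normalization, which gives the 4 arrays the same distribution, and each gene is represented by its brightest probe set. Because probe sets differ in brightness for a given quantity of RNA, no gene's level is set against another's. Each array had a background bound, taken as the 95th percentile of 85 genes known from liver, gut, muscle and other organs, which lay at 5.95, 5.50, 5.41 and 5.64 in samples 1-1, 1-2, 2-1 and 2-2. The median deposited signal ran from 8.40 in sample 1-1 to 11.4 in sample 2-2, and with so few arrays every value has limited precision. In captured tissue, fewer cells of a type and less RNA per cell cannot be told apart. All 14 measured Purkinje cell markers passed the bound on all 4 arrays, among them Calb1, Pcp4 and Car8.

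Of the 30 cholesterol genes, 19 (63.3%) passed the bound on all 4 arrays, 6 on some arrays and 5 (16.7%) on none. Of all named genes, 29.3% passed on every array and 53.5% on none. By role, 3 of 6 genes of the mevalonate steps, 5 of 11 of the squalene and sterol steps, 4 of 6 control genes, all 6 uptake and export genes and the 1 measured turnover gene passed throughout. A stricter bound, at the 99th percentile, left 11 of 30 genes, against 20.0% of named genes. Pmvk, Cyp51, Tm7sf2, Hsd17b7, Dhcr7, Scap, Lrp1 and Abcg4 were the genes that then no longer passed.

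**Figure D1:**
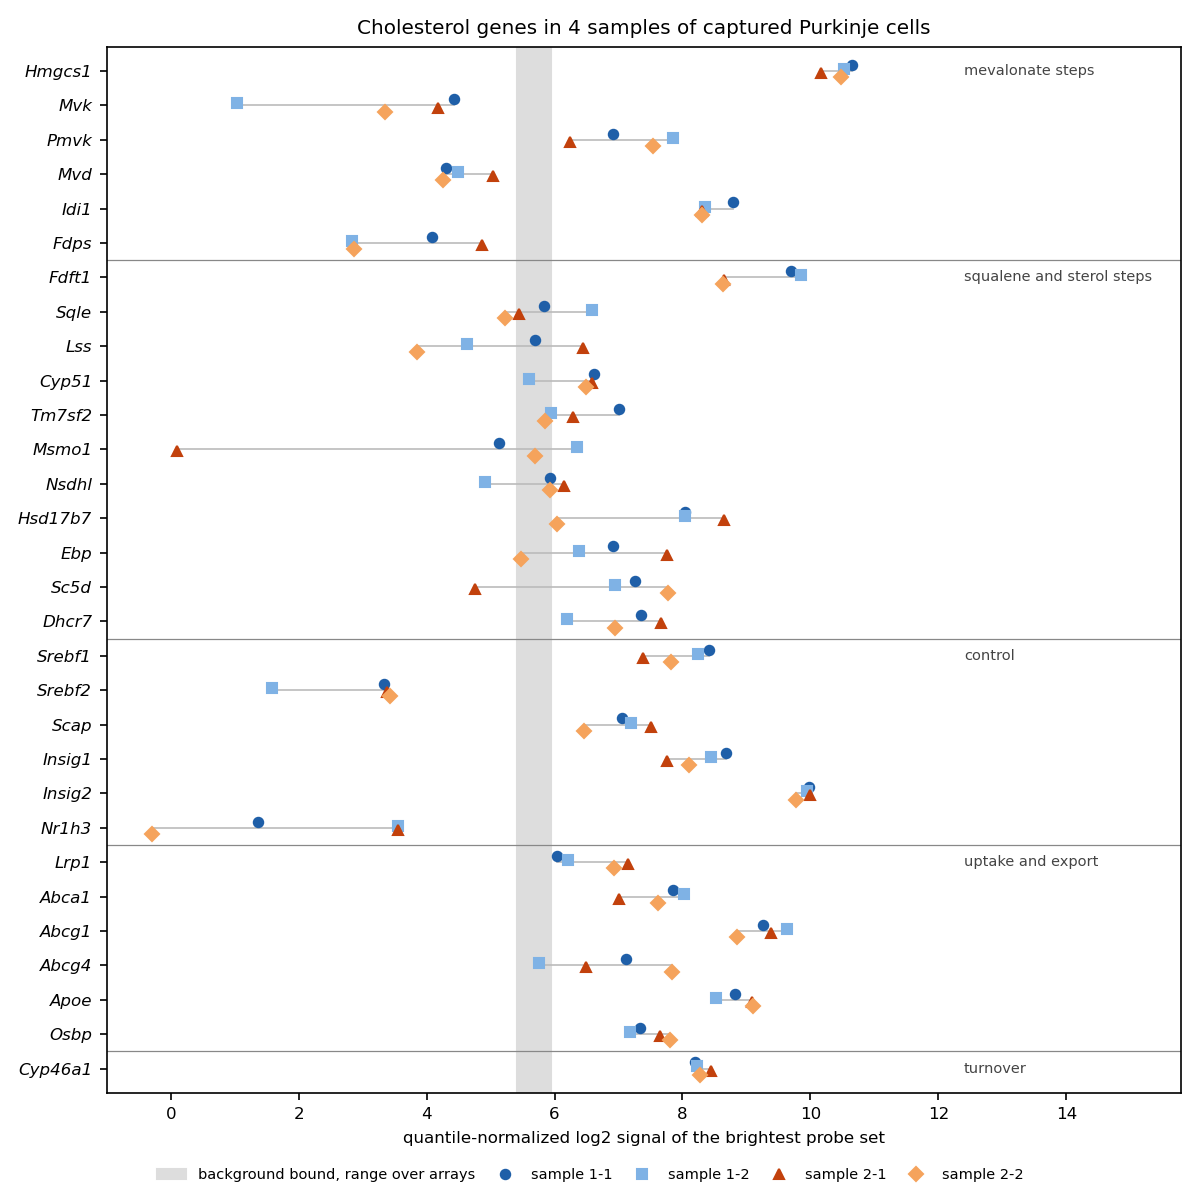
Quantile-normalized log2 signal (horizontal axis) of the brightest probe set of each of 30 cholesterol genes in the 4 samples, with 1 symbol per sample, the grey line joining lowest and highest, and the grey band spanning the bounds of the 4 arrays from 5.41 to 5.95. Hmgcs1, Insig2 and Abcg1 lie well to the right of the band in every sample, and Mvk, Mvd, Fdps, Srebf2 and Nr1h3 lie to its left in every sample.

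Genes of the first, mevalonate steps fell on both sides of the bound. Hmgcs1, the cytosolic synthase that forms the precursor of mevalonate, was at 10.65, 10.52, 10.16 and 10.48 in samples 1-1, 1-2, 2-1 and 2-2. Idi1, the isomerase of the isoprenoid unit, was at 8.79, 8.35, 8.30 and 8.30. Both genes stood at least 2.66 above the bound on every array, and their samples spread over 0.49 each. Pmvk, the kinase that adds the next phosphate to phosphomevalonate, was at 6.91, 7.85, 6.24 and 7.54, which is above the bound by 0.83 or more, with no order by animal.

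The other 3 mevalonate genes were below the bound on all 4 arrays on both of their probe sets. Mvk, mevalonate kinase, was at 4.43, 1.03, 4.17 and 3.35. Mvd, the decarboxylase that yields the isoprenoid unit, was at 4.31, 4.49, 5.04 and 4.25. Fdps, which joins isoprenoid units into farnesyl diphosphate, was at 4.08, 2.83, 4.86 and 2.86. A signal below the bound gives no level for these genes, only that they were not well above background on these probe sets.

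Promoter windows from RefSeq (build GRCm38.p6), from 250 bases before to 50 after a gene's start, were given for 28 of the 33 listed genes. They were searched on both strands for CCAAT, the box bound by NF-Y, which often lies beside sites of the SREBP factors, and for TCACNCCAC, a form of the sterol regulatory element. A CCAAT was present for 21 of 28 genes (75.0%), against 41.1% of all 27025 genes with a window, and TCACNCCAC for 1 gene, Hmgcs1, against 1.44%. GGGCGG, a GC box bound by SP1, was present for 24 of 28 genes (85.7%) against 38.2% of all genes and 57.3% of the genes named on the array. The CCAAT count was 12 of 16 for genes above the bound on all 4 arrays and 8 of 9 for the measured genes that were not. The 250 bases before the start follow for 2 genes above the bound, Hmgcs1 (chr13:119690101-119690350, plus strand) and Idi1 (chr13:8885356-8885605, plus strand), and 2 below it on every array, Mvk (chr5:114444019-114444268, plus strand) and Srebf2 (chr15:82147019-82147268, plus strand). Capitals mark CCAAT or its reverse complement ATTGG and, in Hmgcs1, the sterol element, and these genes are shown because genes on both sides of the bound hold the box.
Hmgcs1: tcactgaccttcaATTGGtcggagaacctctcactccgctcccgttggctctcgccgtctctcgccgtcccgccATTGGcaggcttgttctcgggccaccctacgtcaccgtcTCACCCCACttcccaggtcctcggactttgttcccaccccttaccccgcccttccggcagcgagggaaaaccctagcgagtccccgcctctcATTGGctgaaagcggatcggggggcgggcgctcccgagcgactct
Idi1: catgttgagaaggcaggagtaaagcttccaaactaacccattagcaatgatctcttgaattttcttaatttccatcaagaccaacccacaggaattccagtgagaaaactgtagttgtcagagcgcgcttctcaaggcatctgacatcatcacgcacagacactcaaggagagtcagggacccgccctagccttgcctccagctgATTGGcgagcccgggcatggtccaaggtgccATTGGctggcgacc
Mvk: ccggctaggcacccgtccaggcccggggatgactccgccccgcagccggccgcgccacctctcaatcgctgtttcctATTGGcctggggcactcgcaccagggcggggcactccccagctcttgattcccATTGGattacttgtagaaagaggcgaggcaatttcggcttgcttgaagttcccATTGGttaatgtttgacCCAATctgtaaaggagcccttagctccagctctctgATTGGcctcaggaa
Srebf2: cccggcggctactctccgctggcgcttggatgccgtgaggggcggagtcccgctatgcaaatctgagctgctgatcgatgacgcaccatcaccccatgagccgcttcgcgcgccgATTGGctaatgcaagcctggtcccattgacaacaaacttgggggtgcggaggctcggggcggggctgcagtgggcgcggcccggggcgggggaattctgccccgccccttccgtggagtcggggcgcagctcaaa
Mvk, not above background here, held 5 CCAAT matches before its start, Hmgcs1 held 3, Idi1 2 and Srebf2 1. The sterol element of Hmgcs1 begins 137 bases before the start. A match is a description of letters and no evidence of binding in these cells.

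Among the 11 genes from squalene to cholesterol, Fdft1, squalene synthase and the first enzyme committed to sterols, was well above the bound on every array. It was at 9.69 and 9.86 in animal 1 and at 8.65 and 8.64 in animal 2. The samples of the animals did not overlap. Dhcr7, the reductase that makes cholesterol from its last precursor on one branch, was at 7.35, 6.20, 7.67 and 6.94 in samples 1-1, 1-2, 2-1 and 2-2, and Hsd17b7, a sterol ketone reductase, at 8.04, 8.04, 8.65 and 6.04. Cyp51, lanosterol demethylase, was at 6.61, 5.60, 6.58 and 6.49, and Tm7sf2, a sterol reductase, at 7.01, 5.94, 6.29 and 5.85. Both passed narrowly, with smallest margins of 0.10 and 0.21.

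The remaining 6 sterol genes passed on some arrays. Ebp, the sterol isomerase, missed the bound only in sample 2-2 (6.92, 6.38, 7.75 and 5.47 in the order above). Sc5d, the desaturase, missed it only in sample 2-1, where it was at 4.75 against 7.25, 6.95 and 7.77 in the other samples. Msmo1, a monooxygenase that acts on sterol methyl groups, was at 5.13, 6.35, 0.09 and 5.69, so that sample 2-1 was far below the other 3. Sqle, the epoxidase that acts on squalene, was at 5.83, 6.59, 5.44 and 5.22. Nsdhl, the sterol dehydrogenase, was at 5.93, 4.91, 6.15 and 5.93 and passed only in animal 2. Lss, the cyclase that forms lanosterol, was at 5.70, 4.63, 6.44 and 3.85 and passed in sample 2-1 alone.

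Control genes included both INSIG genes. Insig2 was at 9.97, 9.95, 9.99 and 9.77, a range of 0.22, the narrowest of the 30 genes. Insig1, itself a known SREBP target, was at 8.68 and 8.45 in animal 1 and at 7.75 and 8.10 in animal 2. Srebf1, which encodes the SREBP form best known for fatty acid synthesis, was at 8.41 and 8.24 in animal 1 and at 7.38 and 7.82 in animal 2, and Scap, the escort of the SREBP factors, at 7.05, 7.20, 7.50 and 6.46. Srebf2, which encodes the SREBP form best known for cholesterol synthesis, was below the bound on all 4 arrays at 3.33, 1.58, 3.38 and 3.42, on its other probe set as well. Nr1h3, which encodes the oxysterol receptor LXR alpha, was below it too, at 1.36, 3.55, 3.55 and -0.30 on its only probe set.

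All 6 listed genes of uptake and export passed on all 4 arrays. Of the other genes of cholesterol handling described below, 16 of 30 did, and Scarb1, Abca2, Apod, Npc1 and Abca7 did not. Abcg1, an exporter of cholesterol to lipoprotein particles, was at 9.26, 9.64, 9.39 and 8.85, and Apoe at 8.82, 8.53, 9.08 and 9.11. Abca1, the exporter that loads lipid-poor apolipoproteins, was at 7.85 and 8.03 in animal 1 and at 7.01 and 7.61 in animal 2. Osbp, an oxysterol-binding protein that exchanges sterol at membrane contacts, was at 7.34 and 7.18 in animal 1 and at 7.65 and 7.81 in animal 2. Abcg4, a transporter related to Abcg1, varied more, at 7.11, 5.76, 6.49 and 7.84. Lrp1, an endocytic receptor for apolipoprotein E particles, was at 6.04 and 6.21 in animal 1, within 0.09 of the bound in sample 1-1, and at 7.15 and 6.93 in animal 2. Cyp46a1, the hydroxylase gene of cholesterol turnover, was at 8.20, 8.23, 8.45 and 8.28, and its 4 samples spread over 0.26.

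Markers of other cells were measured in the same captures. Bergmann glia and astrocyte markers passed the bound on all 4 arrays in 14 of 18 cases, among them Gja1, Hopx and Timp4, while Hes5 and Slc6a11 were below it on every array. Their summed linear signal was 16400, 16300, 14100 and 12700 in samples 1-1, 1-2, 2-1 and 2-2. Oligodendrocyte markers passed in 4 of 14 cases, namely Cnp, Mbp, Olig1 and Ugt8a, with summed signals from 3540 to 5460, and Mog, Mag and 7 others below the bound on every array. Granule cell markers passed in 9 of 16 cases, among them Zic1, Gabra6 and Kcnd2, and Zic2, Slc17a7, Pax6 and Grin2c were below the bound on every array. Microglia markers passed in 1 of 14 cases, Csf1r, while Ctss and C1qb passed on 2 arrays each, with summed signals from 192 to 424. Blood vessel markers passed in 2 of 15, Slc2a1 and Rgs5, while Slco1a4 passed on 3 arrays, with summed signals from 540 to 1060. Apoe and Abca1 are best known from glia, and the part of glial RNA in their levels was not tested.

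Several genes above rest on 1 of several probe sets. Of the 19 genes above the bound, 11 had more than 1 probe set. In 7 of the 11 (63.6%) some probe set failed on every array, against 69.1% of all genes above the bound with several probe sets. For Hsd17b7 the passing probe set, 1457248_x_at, can bind several transcripts, and the other 3 were below the bound on every array. For Fdft1 the brightest was 1438322_x_at, of the same kind. Its probe set 1448130_at was at 5.83, 6.11, 6.86 and 5.92, and its other 2 were below the bound throughout. Abca1 passed on 1421840_at while 1421839_at and 1450392_at did not pass on any array, and Lrp1, Scap and Cyp51 each also had 1 such probe set. Abcg4 passed on 1424437_s_at, and its other probe set passed in sample 1-2 alone. Idi1 and Abcg1 passed on both of their probe sets on all 4 arrays, and Insig2 on 2 of 3, with its remaining one missing the bound in sample 1-2 alone. Without probe sets ending in _s_at, _x_at or _a_at, 14 of 25 genes passed, against 24.9% of named genes. Pmvk, Srebf1, Abcg4 and Apoe then had no probe set left, Fdft1 and Hsd17b7 no longer passed, and Ebp was gained.

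**Figure D2:**
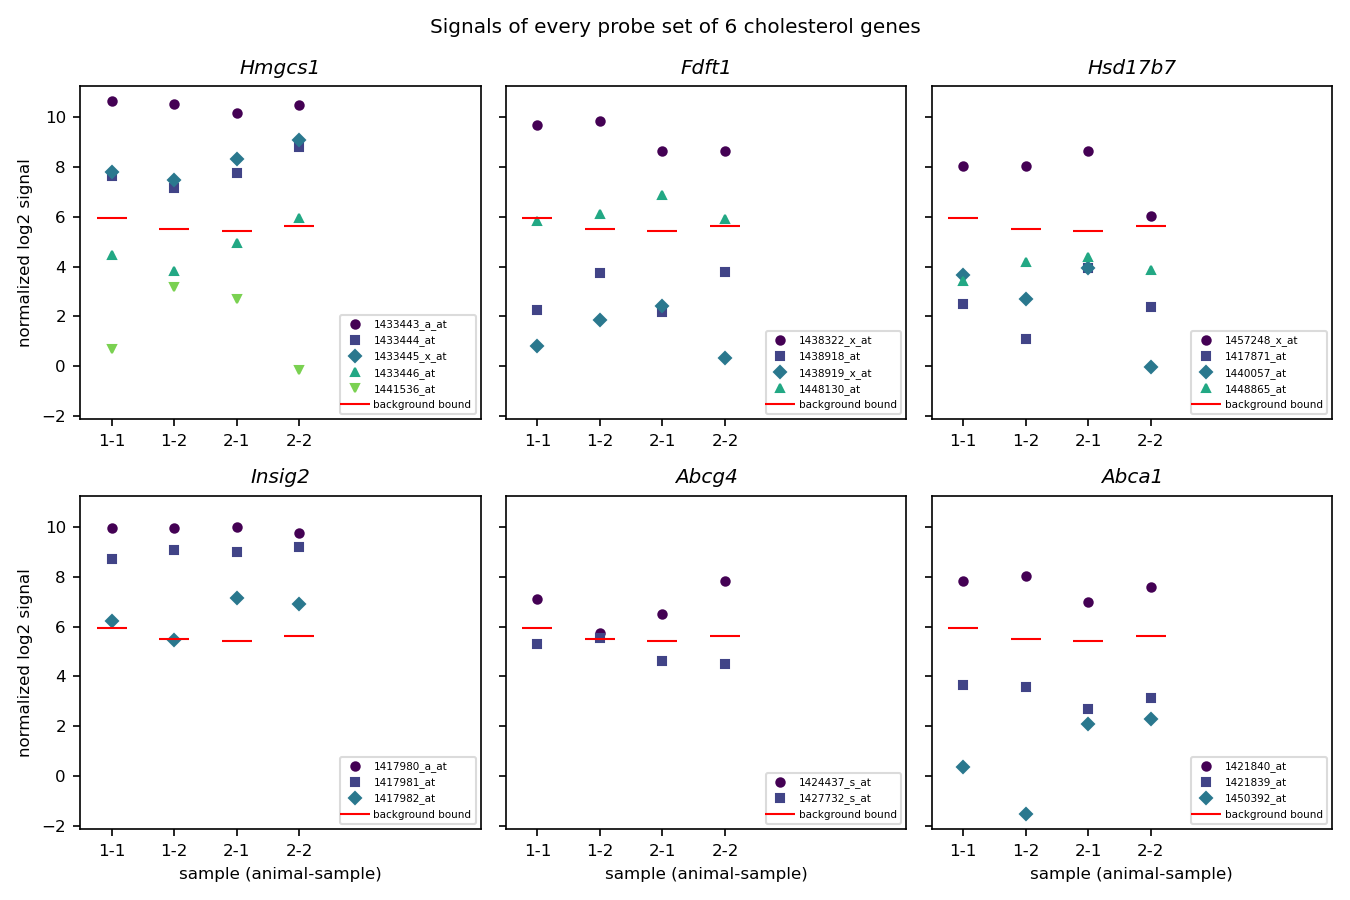
Quantile-normalized log2 signal (vertical axis) of every probe set of 6 cholesterol genes in samples 1-1, 1-2, 2-1 and 2-2, with the background bound of each array as a red bar. Probe sets of each gene differ in level and in which animal has the higher mean. For Hsd17b7 and Abca1 the opposite order appears only on probe sets below the bound on every array.

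Animal 2 was then compared with animal 1 with limma over the 11555 probe sets that passed the bound in 2 samples or more. Of the 60 probe sets of the 30 genes, 33 passed this filter, among them the brightest probe set of 24 genes, and none was called at an adjusted p under 0.05. Over all probe sets tested 43 (0.372%) were called. At an unadjusted p under 0.05 there were 3 of 33 probe sets (9.09%), against 17.1% of all those tested, and without the mean-variance trend limma called 0 of them and 0 of all probe sets. Nsdhl passed the filter through animal 2 alone.

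The smallest adjusted p belonged to Fdft1, with a log2 difference, animal 2 minus animal 1, of -1.13 ± 0.21 on 1438322_x_at (SE from limma, 2 samples in each animal, adjusted p = 0.0794). On values as deposited the difference of Fdft1 was -0.63, also without overlap. That scale put animal 2 higher by a median of 0.48 over all tested probe sets. With the test restricted to probe sets that passed the bound in every sample, so that fewer were tested, this probe set was called (adjusted p = 0.0453, limma). It was also called without sample 2-1 (adjusted p = 0.0311) or without sample 2-2 (adjusted p = 0.0262), fits that called 764 and 974 of all probe sets. It was not called without sample 1-1 (adjusted p = 0.621) or without sample 1-2 (adjusted p = 0.609). Without the trend its adjusted p was 0.242, without the filter 0.238, and on values as deposited 0.163 (limma). The probe set 1448130_at of the same gene stood at 0.42 ± 0.53 (adjusted p = 0.730, limma), the other way. The probe sets of Hmgcs1 disagreed as well. The brightest stood at -0.26 ± 0.16 (adjusted p = 0.458, limma), and 1433444_at and 1433445_x_at at 0.89 ± 0.43 and 1.05 ± 0.36 (adjusted p = 0.344 and 0.214). On 1433445_x_at the signal was 7.81 and 7.48 in animal 1 and 8.31 and 9.09 in animal 2, with no overlap. The remaining probe set with an unadjusted p under 0.05 was 1417982_at of Insig2, at 1.17 ± 0.47 (adjusted p = 0.273), while its brightest probe set stood at -0.08 ± 0.17.

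Of the brightest probe sets of the 30 genes, 7 (23.3%) had both samples of animal 2 below both of animal 1, against 20.2% of all named genes, and 5 (16.7%) had both above, against 20.7%. The 7 were Hmgcs1, Idi1, Fdft1, Sqle, Srebf1, Insig1 and Abca1, and the 5 were Srebf2, Lrp1, Apoe, Osbp and Cyp46a1, of which Srebf2 was below the bound. Srebf1 stood at -0.72 ± 0.31 (adjusted p = 0.303, limma), Insig1 at -0.64 ± 0.29 (adjusted p = 0.318) and Abca1 at -0.63 ± 0.35 (adjusted p = 0.413). Lrp1 stood at 0.92 ± 0.41 (adjusted p = 0.309, limma), Osbp at 0.47 ± 0.32 (adjusted p = 0.504) and Apoe at 0.42 ± 0.24 (adjusted p = 0.418). These shares lie near those of all genes, and none of these differences passed the test.

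**Figure D3:**
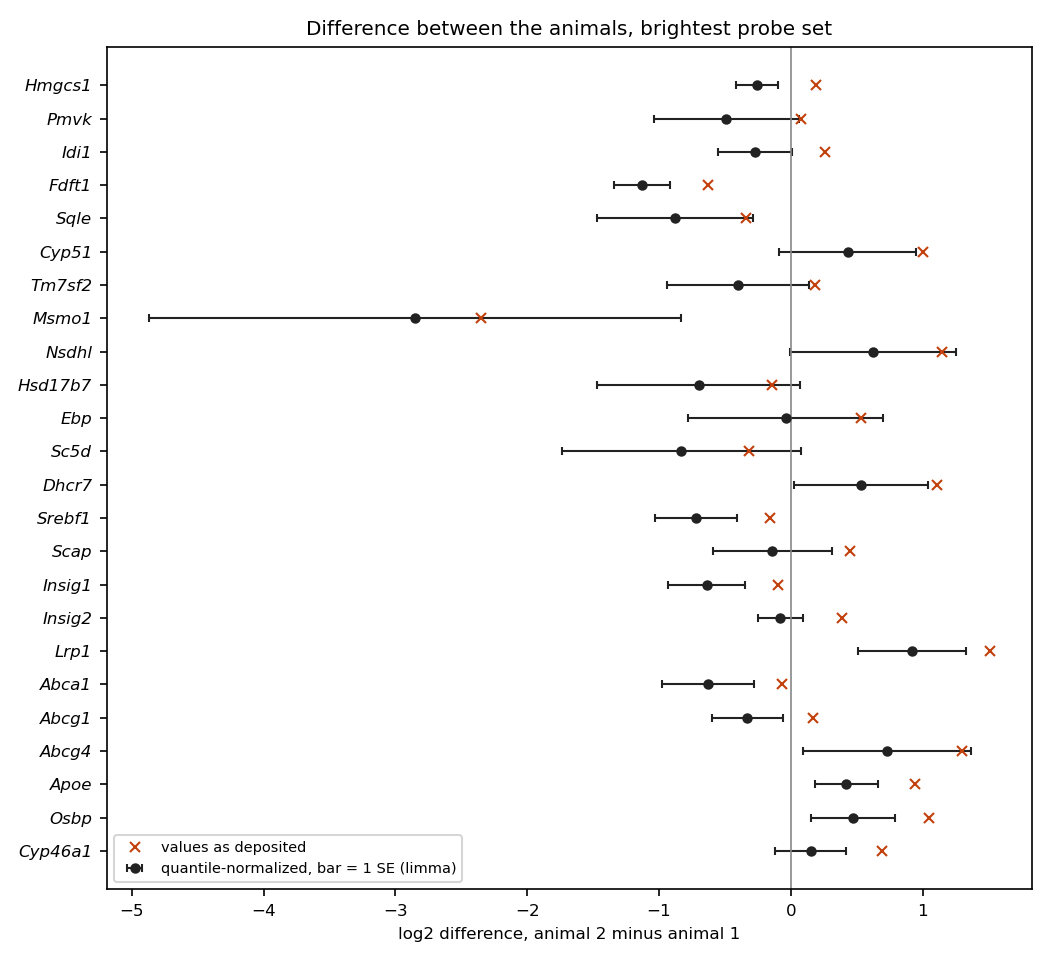
Log2 difference of animal 2 minus animal 1 (horizontal axis) for the 24 genes whose brightest probe set was tested, as points with a bar of 1 SE from limma, and, as crosses, the same difference on values as deposited. Fdft1 stands at -1.13 with a short bar and is negative on both scales, and Msmo1 has the longest bar because sample 2-1 lies far below sample 2-2.

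The median difference over the 30 genes was -0.11, against -0.01 over all named genes, and over the 19 genes above the bound it was -0.26, against -0.05 over all genes above it. Without sample 2-2 the median over the 30 genes was 0.15, and with the median over each gene's probe sets in place of the brightest it was 0.04, so its sign rested on that sample and on the choice of probe set. Of the 24 genes tested, 16 stood lower and 8 higher in animal 2 on the normalized scale. As deposited, the signals of animal 2 lay higher by a median of 0.48 over all tested probe sets, and 8 of the 24 genes turned from negative to positive: Hmgcs1, Pmvk, Idi1, Tm7sf2, Ebp, Scap, Insig2 and Abcg1. Relative to that shift, 15 of the 24 stood lower in animal 2. With the arrays scaled to 1 trimmed mean, or with an offset of 16 added to the signals, only Ebp changed sign. Samples of animal 1 differed by a median of 0.18 over the 19 genes and those of animal 2 by 0.35, against 0.22 and 0.37 over all genes above the bound.

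Other genes of cholesterol handling, a list of 36 of which 30 were measured, gave 16 above the bound on all 4 arrays. Of these 30 genes, 1 was called lower between the animals and 0 higher. The called gene was Clu, which encodes clusterin, also named apolipoprotein J, a lipid carrier secreted by astrocytes and other cells. On 1454849_x_at it was at 11.33 and 11.33 in animal 1 and at 10.47 and 10.35 in animal 2, and it was lower in animal 2 with a log2 difference of -0.92 ± 0.12 (SE, limma, adjusted p = 0.0467). On 1437458_x_at the difference was -0.99 ± 0.13 (adjusted p = 0.0480, limma), and on its other probe sets, 1437689_x_at and 1418626_a_at, -0.83 ± 0.13 and -0.96 ± 0.44 (adjusted p = 0.0671 and 0.324). Its probe sets ending in _x_at, the called ones among them, can bind several transcripts. All 4 probe sets of Clu were lower in animal 2, on values as deposited too, where the call was lost (difference -0.48, adjusted p = 0.110, limma). It was also lost without the trend, without the filter (adjusted p = 0.270 and 0.159), without sample 1-1 (adjusted p = 0.368) and without sample 1-2 (adjusted p = 0.452). With the arrays scaled to 1 trimmed mean, the call on 1437458_x_at was lost (adjusted p = 0.0526, limma).

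Markers of other cells were compared between the animals in the same way. Of all named genes, 20.2% were lower and 20.7% higher in animal 2 without overlap. Granule cell markers had a median difference of -1.13, with 10 of 16 genes lower in animal 2 without overlap and 1 higher, and summed signals of 5440 and 6160 in animal 1 against 3000 and 3200 in animal 2. Zic1 was their called gene, on 1 probe set (-1.29 ± 0.18, adjusted p = 0.0480, limma). On values as deposited that call was lost (adjusted p = 0.0707, limma). The other Zic1 probe set stood at -0.67 ± 0.17 (adjusted p = 0.138, limma). Bergmann glia and astrocyte markers had a median of -0.14, with 8 of 18 lower and 3 higher without overlap, the latter near the share of all genes. Oligodendrocyte and blood vessel markers had medians of -0.81 and -0.66, with 10 of 14 and 13 of 15 genes failing the bound on some array, and microglia markers one of 0.35. Without overlap 3 microglia markers were higher and 3 lower, both near the shares of all genes, and 13 of the 14 failed the bound on some array. Csf1r, the microglia marker that passed throughout, had a difference of -1.46 without overlap, and its other probe sets were below the bound on every array. Ctss, which passed in animal 1 alone, went the same way as Csf1r, at -2.61 without overlap. C1qb, which passed in animal 2 alone, went the other way, at 1.54 without overlap. Its other probe sets were also below the bound on every array. The differences of Ctss and C1qb thus rest on signals below the bound in 1 animal. The summed signals of the list were 424 and 317 in animal 1 and 192 and 227 in animal 2. Of 14 Purkinje cell markers, 9 were higher in animal 2 without overlap and 1 lower, with a median of 0.09 and summed signals of 77800 and 78700 in animal 1 against 85800 and 85300 in animal 2. Among them Pcp2 was called higher in animal 2 on 1 probe set (0.57, adjusted p = 0.0393, limma) and Calb1 lower on 1 probe set (-0.88, adjusted p = 0.0348). The other Pcp2 probe sets stood at 0.59 and 0.03 (adjusted p = 0.251 and 0.985, limma). Another Calb1 probe set lay at 13.68 on all 4 arrays, where the shared distribution fixes its value, and gives no comparison. A further Calb1 probe set above the bound went the other way, at 11.42 and 11.44 in animal 1 and at 11.57 and 11.66 in animal 2. Its difference was 0.18 (adjusted p = 0.364, limma). The part of these cells in the values of Fdft1, Clu and the other genes named was not tested.

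**Figure D4:**
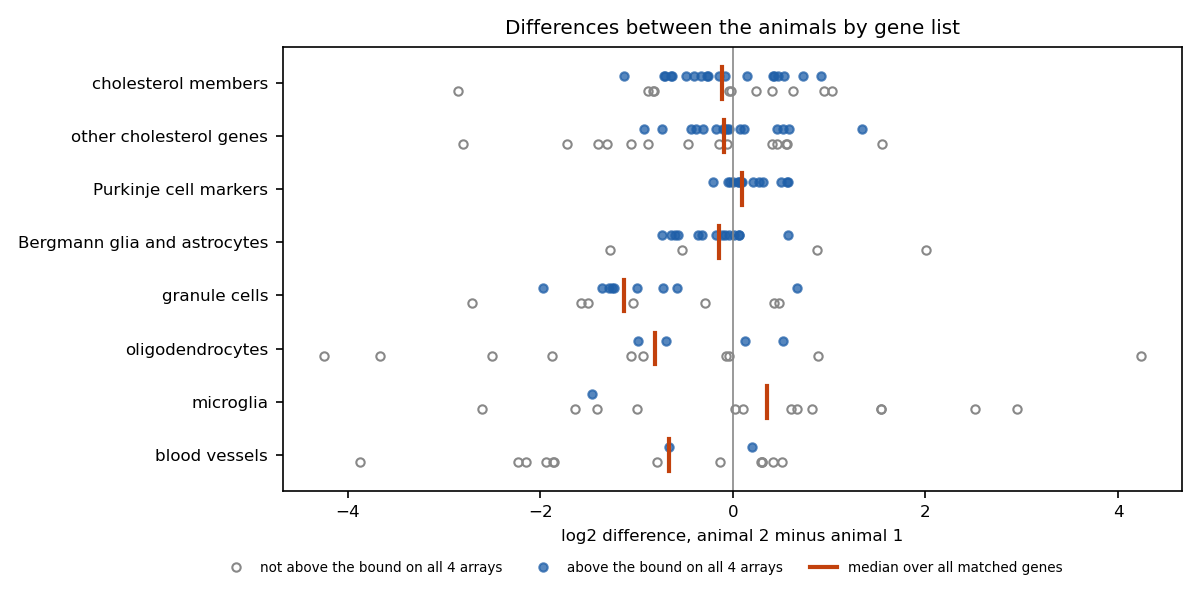
Log2 difference of animal 2 minus animal 1 (horizontal axis) for each gene of 8 lists, filled where the gene passed the bound in every sample and open otherwise, with the median of each list as a bar. The cholesterol genes have a median of -0.11 and spread on both sides of 0, and the granule cell list has a median of -1.13.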

How the data were processed

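RNA from laser-captured Purkinje cells was amplified in 2 cycles, biotin-labelled and hybridized to Affymetrix arrays, per the labels' protocols. The authors deposited 1 linear intensity for each probe set of an array. GCOS is the tool that the submitters' processing notes name, and the sources used here give neither its version nor the algorithm, scaling or detection calls. The table holds 45101 probe sets, 64 of them controls, which were left out, and 1 value of 0. The platform annotation gave 1 gene symbol to 34945 probe sets, several to 932 and none to 9160.

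Signals under 0.1 were set to 0.1 and log2 was taken. Trimmed means (2% from each end) differed by 46.6% of their average, above the 5% allowed, so quantile normalization in limma 3.58.1 (R 4.3.3) was used. Animals were compared with lmFit and with eBayes, which was given a mean-variance trend, 2 residual degrees of freedom and Benjamini-Hochberg adjustment over all probe sets tested, at a false discovery rate of 0.05. The fit was tested on simulated data. Of the 85 background genes 4 passed the bound on all 4 arrays. Every cholesterol gene was named, and of the other lists the called genes and the 3 markers of each list with the strongest signal, with further genes named after their values were seen. The genes and lists were chosen with earlier results of these data known. Alternatives were other bounds, scalings, offsets, filters and probe set choices, and leaving out each sample. Motifs were searched as exact letters. Scan batches were not tested, since no scanner file was used here.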

Additional observations from a re-analysis of the deposited data

Results flagged for a closer look

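In 3 of 30 cholesterol genes 1 of the 4 samples stood far from the other 3, by the gap to its nearest neighbour over the whole range, above Dixon's critical value for 4 samples. Chance gives about 1 in 20 for independent samples of 1 normal distribution, whereas these samples are pairs from 2 animals. The share of all named genes above the critical value was not computed, so the count has no direct comparison. Srebf2 had a ratio of 0.949, with sample 1-2 at 1.58 below the others, all under the background bound. Idi1 had a ratio of 0.890, with sample 1-1 at 8.79 above the others within a range of 0.49. Cyp51 had a ratio of 0.877, with sample 1-2 at 5.60 below the others, next to the bound.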

How the results depend on the processing

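The count of cholesterol genes above the bound was 11 of 30 with the 99th percentile, against 20.0% of named genes. Without probe sets ending in _s_at, _x_at or _a_at it was 14 of 25, against 24.9%. It lay from 17 to 24 of 30 under the other bounds and probe set choices, against 22.8% to 42.1% of named genes. Of these settings the 90th percentile (23) was chosen after the data were seen. Leaving out single samples gave 19 to 20. The count of these genes called between the animals was 1 with the filter on all 4 arrays and 0 to 2 when a sample was left out, and 0 under the other alternatives. The 2 genes called without sample 2-1 were Fdft1 and Hsd17b7, and without sample 2-2 they were Fdft1 and Sc5d. The count over all probe sets, 43 (25 higher and 18 lower in animal 2), was 620 on values as deposited (611 higher and 9 lower), 160 with the filter on all 4 arrays (87 and 73), 5 with no filter and 0 without the trend. It ran from 1 to 974 when a sample was left out: 7 without 1-1, 1 without 1-2, 764 without 2-1 and 974 without 2-2, where the residual spread comes from 1 pair of samples. The median difference over the genes was 0.41 on values as deposited, 0.04 with the median over each gene's probe sets, and -0.23 to 0.15 when a sample was left out. Of the 30 genes, those without overlap on values as deposited numbered 10 higher and 1 lower. On that scale animal 2 lay higher by a median of 0.48 over all tested probe sets. The share of all named genes without overlap was not computed on it, so the count is no result about these genes. No fit with the sample number as a block was made, since the labels do not tie sample numbers across animals. With 2 samples per animal, small differences and signals near the bound cannot be resolved.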
